A study of Mus musculus with 4 samples.

Results

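Genes of the Z-disc and of stretch sensing in heart muscle were measured in whole hearts of heterozygous and of wild-type mice. The set was named by 10 gene symbols (Ldb3, Xirp1, Csrp3, Tcap, Myoz2, Ankrd1, Des, Cryab, Pdlim3 and Pdlim5), and every probe set carrying 1 of them in the platform annotation was taken. That gave 8 of the 8252 genes on the array, measured by 9 of its 12488 probe sets, while Myoz2 and Pdlim5 had none and are not analysed here. The samples were 2 pools of heterozygous hearts and 2 pools of wild-type hearts, each made from 5 hearts. All mice were adult males of 8 to 16 weeks, and their strain was 129/Black Swiss. Both genotypes shared this strain and the same RNA isolation, with Trizol and a further phenol-chloroform step. The labels do not say that the 2 pools of a genotype came from separate animals, so p-values measure only the spread between these 4 samples, which may be technical. The comparison asks which heart transcripts differ in level between the genotypes.

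The Z-disc is the plate at either end of a sarcomere in which actin filaments of neighbouring sarcomeres are anchored and crosslinked by alpha-actinin. PDZ-LIM proteins such as those of Ldb3, Pdlim3 and Pdlim5 bind alpha-actinin there, and small proteins attached to the Z-disc and to titin, such as those of Csrp3, Tcap, Myoz2 and Ankrd1, are linked to the response of heart muscle to load. The desmin filament network ties Z-discs of adjacent myofibrils together, and mutations in several of these genes cause cardiomyopathy in humans.

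Whole heart holds several cell types, and in bulk samples fewer cells of a type and less RNA per cell cannot be told apart. All 7 cardiomyocyte markers were bright, from a signal of 11922.8 upwards on every array. Where 17.9% of all tested probe sets were called higher in the heterozygous pools, 6 of these 7 markers were. Their summed signals were 590099 and 615998 in the heterozygous pools, against 434760 and 396938 in the wild-type pools. Lymphocyte and thymus markers went the other way: 16 of 17 tested were lower in the heterozygous pools, against 20.4% of all tested probe sets. None of these markers was listed at 0. Their summed signal was 20369 and 19984 in the heterozygous pools, against 156834 and 156833 in the wild-type pools. Signals are relative to the total of each array. The part of these markers in the results on Z-disc genes was not tested.

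Promoter windows of the measured genes are shown as a description, and shared regulation was not tested. RefSeq windows (build GRCm38.p6, from 250 bases before to 50 bases after the transcription start, written 5′ to 3′ on the gene's strand) matched 5 of the 8 measured genes: Ldb3 (chr14:34588632-34588931, minus strand), Pdlim3 (chr8:45885237-45885536, plus strand), Ankrd1 (chr19:36119795-36120094, minus strand), Csrp3 (chr7:48848002-48848301, minus strand) and Des (chr1:75360042-75360341, plus strand). Where a gene had several windows, the start lying farthest upstream was used. Capitals mark matches to the motifs searched on both strands.
Ldb3: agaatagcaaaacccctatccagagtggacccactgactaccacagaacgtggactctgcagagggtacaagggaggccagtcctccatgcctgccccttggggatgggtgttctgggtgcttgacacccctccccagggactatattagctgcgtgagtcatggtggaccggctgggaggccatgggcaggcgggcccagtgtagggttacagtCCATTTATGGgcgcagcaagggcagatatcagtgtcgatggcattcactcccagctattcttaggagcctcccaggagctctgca
Pdlim3: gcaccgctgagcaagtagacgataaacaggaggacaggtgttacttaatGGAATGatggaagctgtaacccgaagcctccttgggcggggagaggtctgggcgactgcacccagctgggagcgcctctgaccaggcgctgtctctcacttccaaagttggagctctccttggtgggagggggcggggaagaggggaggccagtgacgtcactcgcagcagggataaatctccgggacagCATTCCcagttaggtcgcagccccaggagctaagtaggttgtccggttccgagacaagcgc
Ankrd1: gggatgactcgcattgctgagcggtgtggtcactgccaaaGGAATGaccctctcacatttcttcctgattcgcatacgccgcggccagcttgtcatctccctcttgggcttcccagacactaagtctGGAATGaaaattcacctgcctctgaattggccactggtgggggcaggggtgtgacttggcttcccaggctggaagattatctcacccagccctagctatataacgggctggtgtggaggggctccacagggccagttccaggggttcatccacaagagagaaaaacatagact
Csrp3: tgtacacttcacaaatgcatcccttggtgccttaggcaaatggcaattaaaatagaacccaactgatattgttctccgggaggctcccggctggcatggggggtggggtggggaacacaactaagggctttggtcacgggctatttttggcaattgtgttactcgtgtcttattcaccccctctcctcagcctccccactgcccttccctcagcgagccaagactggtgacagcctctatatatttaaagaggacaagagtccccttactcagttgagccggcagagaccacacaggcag
Des: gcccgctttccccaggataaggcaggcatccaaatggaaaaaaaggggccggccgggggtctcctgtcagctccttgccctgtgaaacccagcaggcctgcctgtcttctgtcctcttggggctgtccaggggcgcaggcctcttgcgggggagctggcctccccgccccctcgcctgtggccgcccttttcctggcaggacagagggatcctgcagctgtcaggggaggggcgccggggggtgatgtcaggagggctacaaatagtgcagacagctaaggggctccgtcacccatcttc

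The motifs were the M-CAT element CATTCC, which TEAD factors bind, the CArG box, which serum response factor binds, the MEF2 site and the TATA box TATAAA. The M-CAT letters or their reverse complement stood in 2 of the 5 windows: in Ankrd1 starting 210 and 123 bases before the transcription start, and in Pdlim3 starting 201 and 11 bases before it. Of all 27025 promoter windows of the same length, 14.65% held this motif. The Ldb3 window held a CArG box, CCATTTATGG, starting 35 bases before the transcription start, and 1.59% of all windows held one. Neither a MEF2 site (3.29% of all windows) nor TATAAA (14.16% of all windows) stood in any of the 5. Matches are descriptions of the letters and not of binding.

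Of the 9 probe sets, 8 passed the filter on dim signals and were tested, 1 for each gene. In the heterozygous pools 7 of the 8 rose and none fell, where 17.9% of all 7453 tested probe sets were called higher and 20.4% lower (38.3% in either direction). The median log2 change of the 8 was 0.93, or 1.91-fold, against 0.001 over all tested probe sets. For those 7, both heterozygous pools lay above both wild-type pools, a separation seen in 34.6% of all tested probe sets, and in 70.1% in either direction. Increases of at least 2-fold that passed the test were found for 3 of the 8 (Xirp1, Ldb3 and Pdlim3), against 5.13% of all tested probe sets. The members were chosen with earlier results of these data known, so these counts describe the set and do not test it. All p-values are from limma with Benjamini-Hochberg adjustment over the whole array, and the smallest two-sided p that exact permutation of 2 pools against 2 allows is 0.333.

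**Figure D1:**
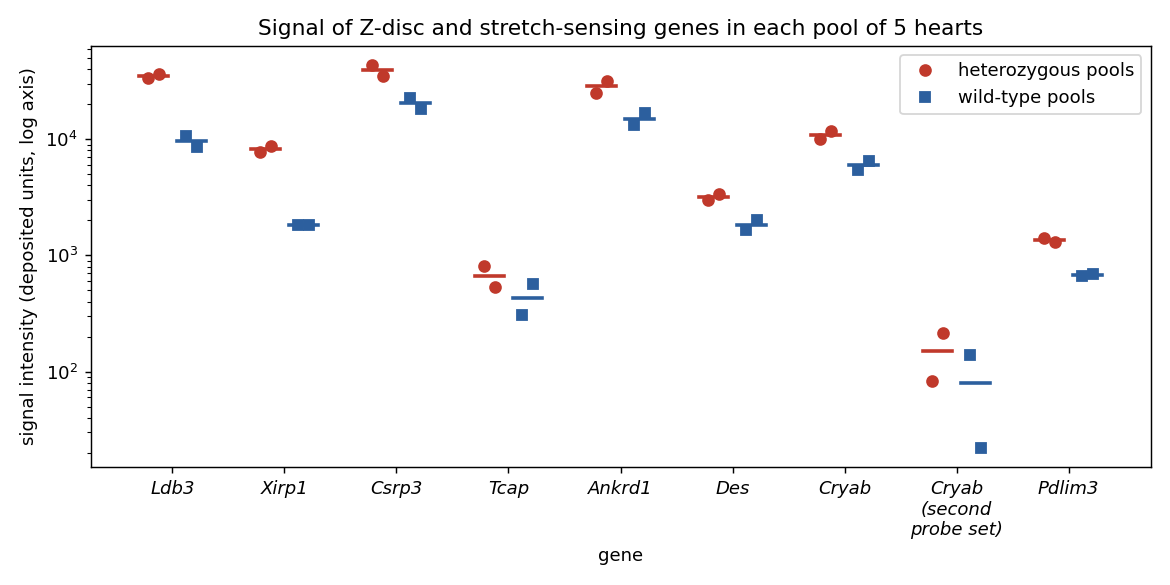
Signal intensity (deposited units, log axis) of the 9 probe sets of 8 genes in each pool, with heterozygous pools as red circles, wild-type pools as blue squares and the mean of each genotype as a bar. The pools separate by genotype for every gene except Tcap and the second, untested Cryab probe set, and the widest gaps are those of Xirp1 and Ldb3.

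Among the PDZ-LIM scaffold genes, Ldb3, which encodes the alpha-actinin-binding protein cypher (ZASP), had signals of 33380.3 and 36547.4 in the heterozygous pools, against 10585 and 8550.6 in the wild-type pools. The lower heterozygous pool lay 3.15-fold above the higher wild-type pool, while pools of 1 genotype differed by at most 1.24-fold. Ldb3 rose 3.67-fold (log2 change 1.88, SE 0.15, limma adjusted p = 4.1e-05), a change above 99.7% of all tested probe sets. Pdlim3, which encodes the actinin-associated LIM protein, had signals of 1403.2 and 1310 in the heterozygous pools, against 662.9 and 692.5 in the wild-type pools. It rose 2.0-fold (log2 change 1.00, SE 0.19, limma adjusted p = 0.00400), with replicate pools within 1.07-fold of each other. The 95% confidence interval of the log2 change ran from 1.54 to 2.21 for Ldb3 and from 0.56 to 1.44 for Pdlim3. The difference between these changes was not tested, and the intervals overlapped under quantile normalization, cyclic loess and some fits with a pool left out.

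Xirp1 encodes an actin-binding repeat protein, Xin, found at intercalated discs and at sites of myofibril assembly and repair. Its signals were 7807.4 and 8702.1 in the heterozygous pools, against 1841.4 and 1831.9 in the wild-type pools. The wild-type pools were within 1.01-fold of each other, and the lower heterozygous pool was 4.24-fold above the higher of them. Xirp1 rose 4.49-fold (log2 change 2.17, SE 0.15, limma adjusted p = 2.1e-05), more than any other gene of the set and above 99.8% of all tested probe sets.

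The stretch-linked genes Csrp3 and Ankrd1 rose by less than Xirp1 and Ldb3, a difference that was not tested. Csrp3 encodes muscle LIM protein, which sits at the Z-disc and can enter the nucleus. Its signals were 43480.2 and 35119.4 in the heterozygous pools, against 22821.5 and 18202.2 in the wild-type pools. The increase was 1.92-fold (log2 change 0.94, SE 0.16, limma adjusted p = 0.00231), and the pools within either genotype differed by 1.24-fold and 1.25-fold. Ankrd1 encodes the cardiac ankyrin repeat protein, a titin-bound transcriptional cofactor induced by load in rodent hearts. It had signals of 25239.2 and 31807.9 in the heterozygous pools and 13247.7 and 16891.4 in the wild-type pools. The groups did not overlap, and Ankrd1 rose 1.89-fold (log2 change 0.92, SE 0.17, limma adjusted p = 0.00312).

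Tcap, which encodes telethonin, the cap that joins the ends of 2 titin molecules at the Z-disc, was the only tested gene of the set that did not pass. Its signals were 810 and 530.9 in the heterozygous pools, against 305.9 and 562.4 in the wild-type pools, so heterozygous pool 2 lay below wild-type pool 2. The log2 change was 0.66 (SE 0.36, 95% confidence interval -0.17 to 1.49, limma adjusted p = 0.184), an interval that holds both no change and changes as large as those of Csrp3 and Ankrd1. Pools of 1 genotype differed by 1.53-fold (heterozygous) and 1.84-fold (wild-type) for this dim probe set.

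The filament and chaperone genes moved by similar amounts. Des encodes desmin, the intermediate filament protein of muscle. Its signals were 2982.3 and 3356.9 in the heterozygous pools, against 1640.7 and 2037.2 in the wild-type pools, and it rose 1.73-fold (log2 change 0.79, SE 0.18, limma adjusted p = 0.00780). Cryab encodes alphaB-crystallin, a small heat shock protein that binds desmin. On its brighter probe set it had signals of 9987.7 and 11668.1 in the heterozygous pools and 5454.6 and 6500.5 in the wild-type pools, and it rose 1.81-fold (log2 change 0.86, SE 0.16, limma adjusted p = 0.00292). A dim second Cryab probe set, which was not tested, had signals of 83.6 and 214.6 in the heterozygous pools, against 138 and 22 in the wild-type pools. Those values overlapped between the genotypes and scattered by 6.27-fold within the wild type, so the second probe set gives no direction. The name of the brighter one ends in _f_at, which on these arrays marks probes that may detect related sequences.

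Of the 7 increases, those of Ldb3, Xirp1 and Pdlim3 kept their calls whichever pool was left out. The calls of Ankrd1, Des and Cryab ended without heterozygous pool 2 (log2 changes of 0.75, 0.71 and 0.75), and that of Csrp3 ended without heterozygous pool 1 (0.79), which left 4 and 6 calls. The calls of Csrp3, Ankrd1, Des and Cryab also ended without the filter on dim signals.

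**Figure D2:**
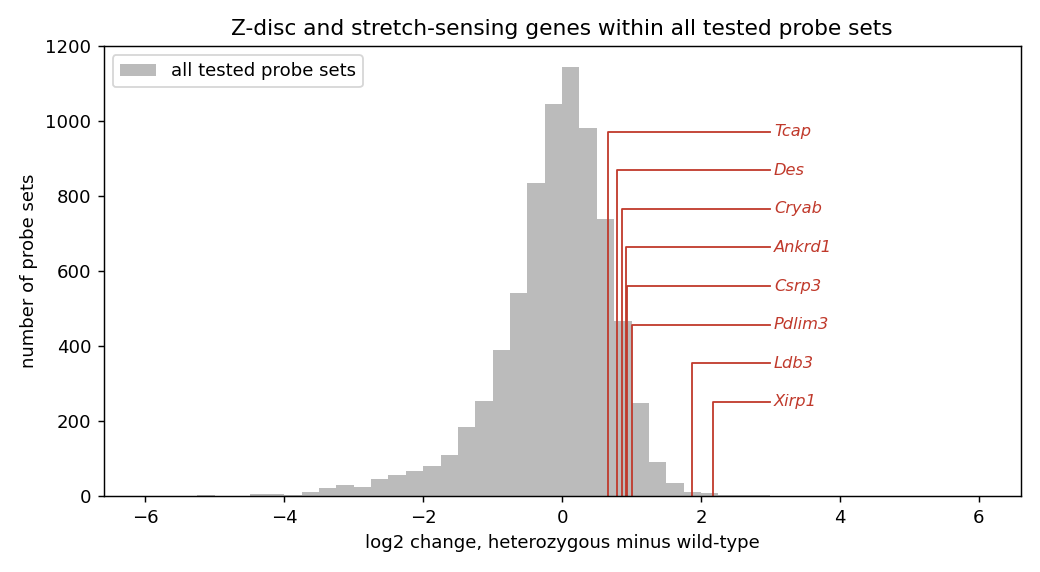
Number of probe sets by log2 change (heterozygous minus wild-type) for all 7453 tested probe sets in grey, with the 8 tested Z-disc and stretch-sensing genes marked in red. All 8 lie right of 0, 6 of them between 0.66 and 1.00, and Ldb3 (1.88) and Xirp1 (2.17) stand in the right tail.

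Since contractile genes as a whole were higher in the heterozygous pools, the Z-disc genes were also set against them. The genes of this list that were tested included myosin, troponin, tropomyosin, actin and M-band genes, with the muscle creatine kinases Ckm and Ckmt2 and myoglobin (Mb). Titin was not among them, and none belonged to the set. The cardiomyocyte markers read above, except Ryr2, were also in this list. Against 17.9% higher and 20.4% lower over all tested probe sets, 14 of its 17 tested genes were higher and none lower. Their median change was 0.67 on the log2 scale (1.59-fold), within a range from 0.20 (Tpm1) to 1.07 (Mybpc3). A change relative to their mean therefore depends on which of these genes are listed, and other lists were not tried. When every array was centred on the mean of these genes, 2 of the 8 Z-disc genes were called higher, against 2.58% of all tested probe sets on that scale. They were Xirp1 and Ldb3, by 2.86-fold and 2.34-fold relative to the contractile genes. In log2 units these changes were 1.52 (SE 0.15, limma adjusted p = 8.4e-05) for Xirp1 and 1.23 (SE 0.13, limma adjusted p = 1.1e-04) for Ldb3. No other setting was varied on this scale. Over the alternatives to the fit on the deposited scale, of which this centring is 1, limma's adjusted p ran from 1.5e-06 to 0.0253 for Xirp1 and from 7.06e-06 to 0.0283 for Ldb3. Relative to the mean of the contractile genes, the log2 signal of Ldb3 was -0.30 and -0.18 in the heterozygous pools and -1.36 and -1.58 in the wild-type pools, and that of Xirp1 was -2.39 and -2.25 in the heterozygous pools and -3.88 and -3.80 in the wild-type pools. Only the differences between pools can be read from these values, since each probe set has its own brightness.

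The calls of the other 5 ended on this scale. Their log2 changes were 0.35 for Pdlim3, 0.29 for Csrp3, 0.27 for Ankrd1, 0.21 for Cryab and 0.14 for Des. Intervals were wide enough to hold both no difference from the contractile genes and a further increase: the 95% interval ran from -0.11 to 0.81 for Pdlim3 and from -0.29 to 0.58 for Des. Tcap was at 0.01 (95% interval -0.86 to 0.89).

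**Figure D3:**
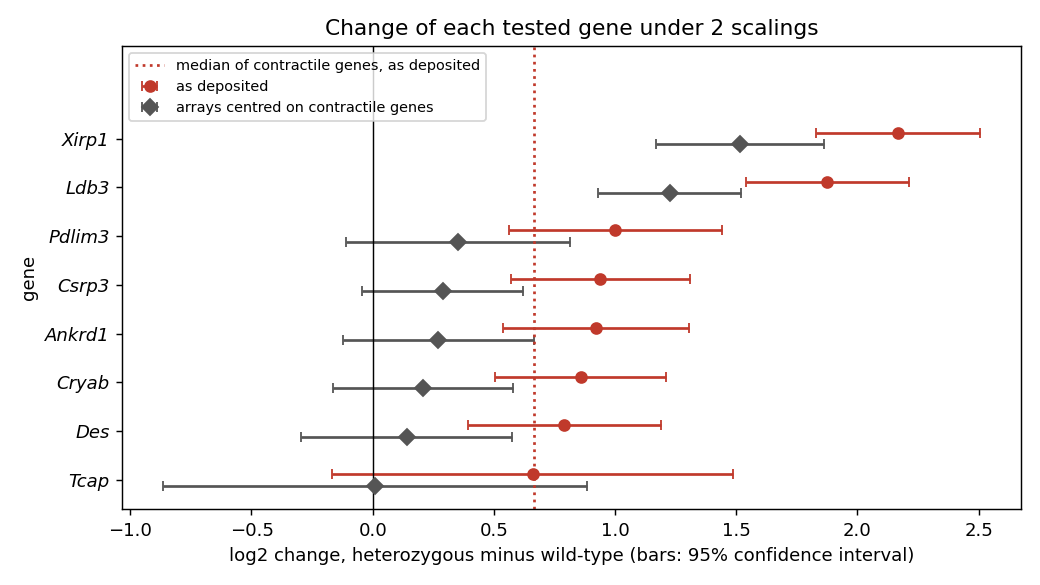
Log2 change (heterozygous minus wild-type) of the 8 tested genes with 95% confidence intervals, on the deposited scale (red circles) and with arrays centred on the contractile genes (grey diamonds); the dotted line is the median of the contractile genes on the deposited scale (0.67). After centring, the intervals of Xirp1 and Ldb3 lie above 0 and those of the other 6 include it.

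Several members are also expressed outside the heart muscle cell, so markers of skeletal and smooth muscle were read beside them. Desmin, telethonin and Ldb3 are abundant in skeletal muscle. Against 20.4% lower and 17.9% higher over all tested probe sets, 6 of 10 tested fast skeletal muscle markers were lower and 1 (Myl1) higher in the heterozygous pools. Their summed signal was 18105 and 19102 in the heterozygous pools, against 27984 and 26083 in the wild-type pools, with none listed at 0. Of 6 smooth muscle markers, which bear on desmin, 1 was higher (Acta2) and none lower, a share near the 17.9% of all tested probe sets called higher. Their sums were 22623 and 18972 in the heterozygous pools, against 14673 and 14038 in the wild-type pools. Of these sums, Acta2 alone gave 13176.1 and 10432.4 in the heterozygous pools, against 7250.4 and 6810.5 in the wild-type pools. The part of these cells in the results was not tested.

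Counted in either direction, genes of the Z-disc and of the costamere outside the set were called about as often as probe sets in general. Of 39 such genes listed, 20 were on the array and 19 were tested, each on its brightest probe set. In the heterozygous pools 6 of the 19 rose and 2 fell, while 11 did not pass, where 17.9% of all tested probe sets were called higher, 20.4% lower and 38.3% in either direction. Taken in either direction, these counts show nothing particular to the list. More of the genes rose than fell, but the balance of directions was not tested. The median log2 change of the 19 was 0.30, against 0.001 over all tested probe sets. The 4 with the smallest p among the increases were Fhl1, Fhl2, Hspb8 and Vcl. Fhl1, a LIM-only protein gene of the stretch-sensing complex on titin, had signals of 15840.1 and 13449 in the heterozygous pools, against 7274.7 and 6538.7 in the wild-type pools, and rose 2.12-fold (limma adjusted p = 0.00072). Its relative Fhl2 rose 1.83-fold, with signals of 40842.3 and 41986.6 in the heterozygous pools and 23065.4 and 22162.8 in the wild-type pools. Hspb8, a small heat shock protein gene that acts with Bag3, rose 1.90-fold on its brighter probe set. The dimmer Hspb8 probe set, whose name ends in _f_at, did not pass (log2 change 0.86, limma adjusted p = 0.0820). Vcl, which encodes the costamere protein vinculin, rose 2.03-fold on its brighter probe set. Its dimmer probe set had a log2 change of 0.25 (limma adjusted p = 0.658).

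Rcan1, a target and inhibitor of calcineurin, and Ppp3ca, the calcineurin catalytic subunit that Z-disc proteins of the Myoz family bind, were the remaining increases, at 1.86-fold and 1.97-fold. Bag3, the cochaperone that clears damaged filamin at the Z-disc, had probe sets that disagreed. The brighter one, whose name ends in _f_at like that of Cryab and which may detect related sequences, had a log2 change of 0.30 (limma adjusted p = 0.157). The other, without this ending, had signals of 9893.6 and 9456.5 in the heterozygous pools, against 3627.4 and 3594.9 in the wild-type pools (log2 change 1.42, limma adjusted p = 0.000125). This gene was singled out after its values were seen.

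The 2 decreases were Capza1 and Csrp1. Capza1, which encodes a widely expressed subunit of the actin capping protein, had signals of 2867.8 and 3193.6 in the heterozygous pools, against 7394.8 and 7185.6 in the wild-type pools, and fell 2.41-fold. Csrp1, the family member of Csrp3 known from smooth muscle and other tissues, fell 2.36-fold on 1 probe set, with signals of 2730 and 2495.1 in the heterozygous pools against 6229.9 and 6071.3 in the wild-type pools. Its other probe set fell 2.86-fold. Csrp2 had a log2 change of 0.48 (limma adjusted p = 0.0822). Actn2, the alpha-actinin gene of heart muscle to which the PDZ-LIM proteins bind, had signals of 829.8 and 781.3 in the heterozygous pools and 830.5 and 454.4 in the wild-type pools, which overlapped (log2 change 0.39, SE 0.30, limma adjusted p = 0.343). Myoz1, of the same family as Myoz2, had a log2 change of -0.67 (limma adjusted p = 0.0745). With arrays centred on the contractile genes, 1 of the 19 was called higher (Fhl1) and 6 lower, against 2.58% higher and 53.4% lower over all tested probe sets.

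**Figure D4:**
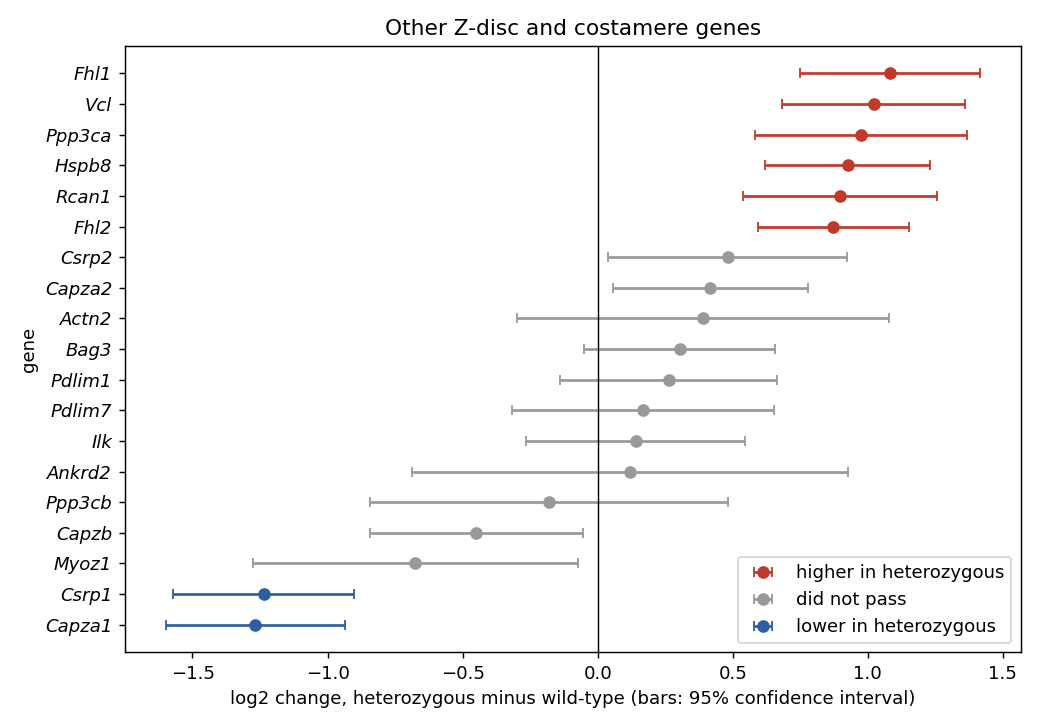
Log2 change (heterozygous minus wild-type) of the 19 other tested Z-disc and costamere genes, each on its brightest probe set, with 95% confidence intervals, coloured by whether they were higher (red, 6 genes), lower (blue, 2 genes) or did not pass (grey, 11 genes). The 6 increases cluster between 0.87 and 1.08, and the decreases lie at -1.27 (Capza1) and -1.24 (Csrp1).

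The pattern over the 4 pools was summarised as the median of the 8 genes' log2 signals, each centred on its own mean. It stood at 0.59 and 0.51 in the heterozygous pools, against -0.60 and -0.39 in the wild-type pools. Signals were centred but not scaled, so distance from this summary counts the size of a change as well as its course over the pools. Among the members, Pdlim3 lay nearest to the summary (Euclidean distance 0.13 over 4 pools) and Xirp1, with the largest change, farthest (1.15). Over the same 4 pools, the tested probe sets of other genes with the nearest pattern were those of Crat (carnitine acetyltransferase, distance 0.064), Nacc2 (0.069), Fhod3 (a formin that assembles actin in heart muscle, 0.078), Nkiras2 (0.082) and Laptm4b (0.083). Their increases ran from 2.0-fold to 2.11-fold, a range that choosing by this distance largely sets. The probe set names of Crat and Nacc2 end in _f_at.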

How the data were processed

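The authors deposited, for each array, a signal intensity per probe set on a linear scale. How probes were summarised is not given in the sources read. Trimmed means (2% off each end) without the 66 control probe sets ran from 1486.5 to 1488.07, so intensities were used as deposited. Control probe sets, for which heterozygous pool 2 had no values, were left out. Signals were raised to the 10th percentile of all values (36.25) before log2. The 40% of the 12422 remaining probe sets with the lowest mean were not tested, which left 7453. These were fitted with limma 3.58.1 (lmFit, and eBayes with a mean-variance trend; R 4.3.3), on genotype alone. P-values are two-sided, Benjamini-Hochberg adjusted over all 7453, with a threshold of 0.05. Changes are heterozygous minus wild-type, and errors are limma's standard errors. Gene names came from GEO's platform annotation, which gave 1 symbol for 10855 probe sets.

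The gene in which the mice were heterozygous is not reported here. The members and gene lists were chosen with earlier results of these data known. Named beside the members were the 4 other Z-disc genes with the smallest p in each direction and the 5 nearest patterns. Rcan1, Ppp3ca, Bag3, Csrp2, Actn2 and Myoz1 were named after their values were seen. The procedure was first tested on simulated data. Alternatives were other scalings, floors, filters and moderation, the pool number as a block, and each pool left out. Precision is limited by the number of arrays. Figures were made in matplotlib 3.10.9.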

Additional observations from a re-analysis of the deposited data

How the results depend on the processing

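Of the 7 increases, all 7 calls remained under a common median, quantile normalization, cyclic loess, both other floors, the filter that left out the lowest 60%, eBayes without a trend, robust eBayes and the replicate block, and no Z-disc gene of the set was called lower under any alternative. The calls numbered 2 with arrays centred on the contractile genes, 3 without a filter on dim probe sets, and 4 to 7 with 1 pool left out. With the contractile centring the other Z-disc genes had 1 call higher and 6 lower, against 6 and 2, and all probe sets had 192 higher and 3982 lower. Without the filter, all probe sets had 482 higher and 724 lower of 12422 tested. Higher calls over all probe sets numbered 630 to 1125 with 1 pool left out, with 631 without heterozygous pool 1 and 630 without heterozygous pool 2, against 1337. Where a pool is left out, the lone pool of that genotype is assumed to vary like the other group. Over all tested probe sets the median change (log2) was 0.18 with a common median, 0.10 with quantile normalization and -0.65 with the contractile centring. In the same order, higher calls made up 62.5%, 52.8% and 4.60% of calls, in place of 46.8%. The labels number the pools 1 and 2 but do not pair them (the differences of pool 1 from pool 2 correlated at 0.158 between the genotypes, across probe sets); with the pool number as a block, calls over all probe sets went to 3035, against 2856, and the set kept 7 increases. The cause of the changes under other settings was not tested. Log2 changes of the 8 members, Fhl1, Fhl2, Hspb8, Vcl, Capza1, Csrp1 and the 5 nearest patterns kept their sign under the alternatives run. The balance of higher and lower calls turned round with the contractile centring for the other Z-disc genes. Over all probe sets it turned round with a common median (1944 higher and 1167 lower) and with quantile normalization (1511 and 1352). It also did so with the lowest 60% left out (1227 and 1160). For Tcap, with its spread between pools, an increase of the size seen could not be told from no change.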

Other observations

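The nearest protein-coding genes on both sides of the 8 measured members were looked up in RefSeq (GRCm38.p6), a comparison added after the data were seen. Of these 16 neighbours, 9 were on the array, 8 were tested, 2 rose and 1 fell, a share near the 38.3% of all tested probe sets called in either direction. The values are given as a description. Hspb2, a small heat shock protein gene beside Cryab, had signals of 5341 and 4387.9 in the heterozygous pools, against 2527.2 and 2138.2 in the wild-type pools, on 1 probe set. It rose 2.08-fold there and 1.84-fold on the other probe set. Speg, a muscle kinase gene beside Des, had signals of 1641.9 and 2254.9 in the heterozygous pools, against 758.7 and 787.2 in the wild-type pools, and rose 2.49-fold (limma adjusted p = 0.00150). E2f8, a cell cycle regulator gene beside Csrp3, fell 4.07-fold on 1 probe set (name ending in _f_at) and 4.58-fold on the other. The remaining tested neighbours (Cx3cr1, Stard3, Pnmt, Rpp30 and Pcgf5) did not pass.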
